A study of Homo sapiens with 4 samples.

Results

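In K562 cells, 76 of 25702 genes had an expression in empty vector replicate 1 that stood apart from the other 3 libraries of the series. These genes were chosen by their measured values, so their height in this library is a description and carries no test. A gene was included when it reached 5 CPM (the count of a gene over the sum of all counts of its library, scaled to 1000000) in empty vector replicate 1 and at least 2 times the highest of the other 3 libraries. The rule was met by 79 of the 10268 genes that reached 5 CPM there, and 3 of them are not described. Of the 76, 30 were in lists of integrated stress response, amino acid, tRNA charging, apoptosis and ER stress genes, and 46 were in no list examined. Of the 30, CHAC1, CTH, DDIT4, SLC7A11, SESN2, ASNS and TRIB3 were between 3.65 and 14.7 times as high as in any other library. The heat shock, hypoxia and NRF2 antioxidant lists held no member. Each gene was placed in 1 list only and few genes met the rule, so an empty list says little.

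K562 is an established human myeloid leukemia line with erythroid features. The cells were transfected with the LeGO-iG2 plasmid, which also encodes green fluorescent protein, either empty or carrying the RUNX1::ERG fusion found in a pediatric leukemia, and whole transcriptome sequencing of poly(A)-enriched RNA was performed. Each of the empty vector and RUNX1::ERG groups had 2 biological replicates. Both groups went through the transfection, received no further treatment by their labels, and differed by the insert. The methods state no sort of transfected cells before RNA extraction for these libraries, and transfection was transient, so untransfected cells may be included in every library.

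In the integrated stress response, kinases that sense amino acid shortage, misfolded protein in the endoplasmic reticulum (ER), heme shortage or double-stranded RNA phosphorylate the initiation factor eIF2. Most translation then falls while the messenger RNA of the transcription factor ATF4 is translated more. ATF4, paired with C/EBP factors, binds C/EBP-ATF composite elements near genes of amino acid synthesis, amino acid uptake and tRNA charging, and near further stress regulators such as DDIT3 and TRIB3. This is background, and neither eIF2 phosphorylation nor ATF4 protein was measured here.

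The promoters of the members were examined for the composite element first, because it is a property the rule did not use. RefSeq promoters (GRCh38.p14, 250 bases before to 50 after each start site) were held for 58 of the 76 members, 89 promoters in all. The full element TGATGCAAT, on either strand, was present in promoters of 2 of these 58 genes (3.45%), LINC02806 and FUT1, against 0.145% of the 8254 other genes of 5 CPM or more in empty vector replicate 1 and 0.293% of all 27305 genes with a promoter. Its first 8 letters with any base at the sixth place (TGATGNAA) were present for 13 of 58 genes (22.4%), against 2.27% and 4.46%. The narrower core TGATGCAA, added after the data were seen and overlapping both other motifs, was present for 9 of 58 (15.5%), against 0.606% and 1.08%. By contrast, the cyclic AMP element TGACGTCA was found for 2 of 58 (3.45%, against 4.13% of the other genes of 5 CPM or more), and TGACGTGG, a binding motif of the ER stress factors XBP1 and ATF6, for 1 (1.72%, against 1.24%). No test was made on these shares, and a match does not show that a factor binds. Genes with matches included 3 of the 4 member tRNA synthetases, AARS1, CARS1 and MARS1, the last 2 with the match at the start site itself.

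Of 11 member genes with a match upstream of the start site, the sequences around 10 are shown, 5′ to 3′ on the strand of each gene. They are shown because they hold the element named above, which most members with a promoter lacked. The match of DLGAP1-AS2, TGATGAAA, is not printed. Capitals mark the 8-base core, which reads TTGCATCA or TTTCATCA where it lies on the opposite strand.
CHAC1 (chr15:40953251-40953280, plus strand): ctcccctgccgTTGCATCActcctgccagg
ASNS (chr7:97872458-97872487, minus strand): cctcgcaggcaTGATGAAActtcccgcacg
CEBPG (chr19:33374060-33374089, plus strand): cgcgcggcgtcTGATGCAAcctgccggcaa
ATF3 (chr1:212565205-212565234, plus strand): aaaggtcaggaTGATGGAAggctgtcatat
AARS1 (chr16:70289675-70289704, minus strand): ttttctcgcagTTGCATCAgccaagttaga
HERPUD1 (chr16:56931955-56931984, plus strand): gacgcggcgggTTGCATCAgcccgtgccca
IL20RB (chr3:136957896-136957925, plus strand): ccactccctgcTGATGCAAcatctgggttt
FUT1 (chr19:48755459-48755488, minus strand): ctcctcctcccTGATGCAAtcctggtgttt
LINC02806 (chr1:148279213-148279242, plus strand): aaaaatgaggaTTGCATCAgcttcctttct
S100P (chr4:6693744-6693773, plus strand): acaacgatgcaTTTCATCAgaactgagcac

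In these windows, the exact core TGATGCAA was shared by 7 of the 10 genes, while ASNS and S100P carried TGATGAAA and ATF3 carried TGATGGAA. Their distances to the start site, counted from the first base of the core on the gene's strand, ran from 42 bases for CEBPG to 209 for CHAC1. ASNS, with its core 68 bases upstream, encodes asparagine synthetase, and elements of this kind are known in its promoter. The 2 elements of the long noncoding RNA LINC02806 and of the fucosyltransferase gene FUT1 were the ones that extended to the full 9 letters.

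The libraries held from 59695387 to 82352144 counts, and empty vector replicate 1 was the smallest. Low counts, from 1 to 10, were even numbers in 66.7% to 68.9% of cases, so mates of a pair may have been counted separately and independent fragments may be fewer than the totals. Members had at least 310 counts in empty vector replicate 1, so counting error is small beside a 2-fold gap. In every library the defining erythroid genes of K562 were high, with HBG2 at 2525, 2528, 3197 and 3077 CPM and GATA1 at 272, 253, 309 and 257 CPM in empty vector replicates 1 and 2 and RUNX1::ERG replicates 1 and 2. Markers of other blood lineages and of fibroblasts did not single out empty vector replicate 1. The 10 monocytic and granulocytic markers summed to 9.87 CPM there and to between 10.9 and 24.8 in the others, the 9 lymphoid markers to 36.1 against 24.2 to 35.2, nearly all from CD3D, and the 8 fibroblast markers to 6.32 against 6.61 to 25.6. The 8 epithelial markers summed to 1075 CPM against 1244 to 1302, carried by KRT8, KRT18, KRT19 and EPCAM in all 4 libraries, with CDH1 and KRT5 at or near 0. As the series was bulk RNA, a larger fraction of cells with the program and more RNA of it per cell cannot be told apart.

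The same rule applied to each other library gave 1 gene for empty vector replicate 2, 21 for RUNX1::ERG replicate 1 and 0 for RUNX1::ERG replicate 2, against 79 for empty vector replicate 1. In the opposite direction, 1 gene in empty vector replicate 1 was at or below 0.5 times the lowest of the others with those at 5 CPM or more, against 12 in empty vector replicate 2. Together the 76 members made up 0.744% of all counts in empty vector replicate 1 and 0.236%, 0.217% and 0.206% in empty vector replicate 2 and RUNX1::ERG replicates 1 and 2. Their ratio to the highest other library had a median of 2.66 and ran from 2.01 for PAX6 to 16.2 for LINC02806, with 28 members at 3 or more and 12 at 5 or more. Across the other 3 libraries, the highest over the lowest had a median of 1.39, and was under 1.5 in 46 members and over 2 in 7. This spread was not set beside that of other genes.

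**Figure D1:**
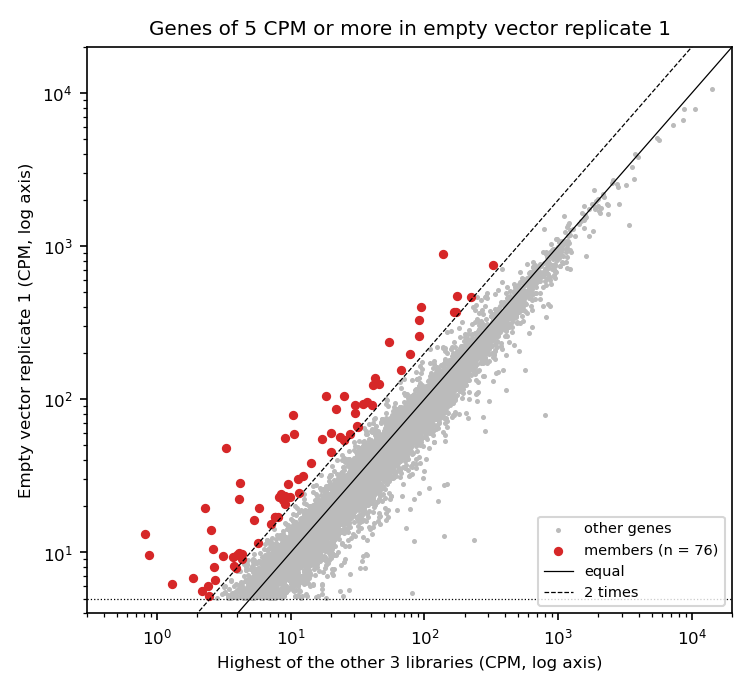
Each point is a gene of 5 CPM or more in empty vector replicate 1, with its CPM there on the vertical log axis and the highest CPM of the other 3 libraries on the horizontal log axis. The 76 members (red) lie above the dashed line of 2 times, and the other genes (grey) lie mostly along the line of equality.

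At the threshold of 2 times, PAX6 (2.01), LINC00662 (2.04) and MARS1 (2.06) were just inside, and MIR223 (2.00), TES (1.97) and KSR1 (1.96) just outside. At 5 CPM, TCP11L2 (5.19), TFIP11-DT (5.595) and CORO1A (6.08) were just inside, and FKBP9P1 (4.94), ZNF674 (4.66) and ASS1 (4.49) just outside. Of the members, 64 were protein-coding, 9 long noncoding RNAs and 1 a transcribed pseudogene, and 2 had no symbol in the table used. They were spread over 20 chromosomes in the 74 placed, with 13 on chromosome 1. Only 3 pairs lay within 100000 bases of each other on GRCh37. IZUMO1 and FUT1 were 1101 bases apart on chromosome 19, SCN4A and ERN1 were 66161 bases apart on chromosome 17, and DDIT3 and MARS1 overlapped by 982 bases on opposite strands of chromosome 12, where reads cannot be assigned without strand.

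Among the 27 gene lists examined, which are sets of genes by function, 7 held 30 of the members. The list of stress transcription factors and regulators held the most, 9 of its 19 genes. CHAC1 (chromosome 15 of GRCh37, 41245160 to 41248710), which degrades glutathione, was at 48.0 CPM in empty vector replicate 1, and at 3.26, 2.73 and 2.42 CPM in empty vector replicate 2 and RUNX1::ERG replicates 1 and 2. It was low in 3 libraries, and in empty vector replicate 1 it was 14.7 times the highest of them.

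DDIT4 (chromosome 10, 74033678 to 74035794), an inhibitor of the growth kinase mTORC1, was at 896, 104, 137 and 87.4 CPM in the same order of libraries. SESN2 (chromosome 1, 28586029 to 28609002), a leucine sensor that also restrains mTORC1, was at 238, 49.3, 54.2 and 47.1 CPM. Both brakes on growth signalling were thus high in the same single library, at 6.53 and 4.39 times the highest of the others.

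TRIB3 (chromosome 20, 343479 to 378203), a pseudokinase that binds ATF4 and DDIT3, was at 329.9, 81.2, 90.4 and 76.2 CPM. DDIT3, or CHOP, the factor of the late, death-promoting phase of the response, was at 93.0, 26.7, 34.97 and 25.0 CPM. ATF3 was at 60.7, 12.8, 20.0 and 11.99 CPM and ATF5 at 261, 76.8, 91.6 and 71.4 CPM, both of them basic leucine zipper factors induced downstream of ATF4. In TRIB3, DDIT3, ATF3 and ATF5 alike, RUNX1::ERG replicate 1 was the highest of the other 3 libraries.

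CEBPG and CEBPB, dimer partners of ATF4, were at 125 and 92.0 CPM in empty vector replicate 1, which was 3.04 and 2.29 times the highest other library. ATF4 itself is controlled largely in translation and was no member. Its messenger RNA was at 447, 243, 265 and 235 CPM, a ratio of 1.69 to the highest of the others. The kinases that phosphorylate eIF2 did not share this, with a log2 ratio to the highest other library between -0.82 for EIF2AK3 and -0.05 for EIF2AK1. Over the 17 genes of this list with a mean of 5 CPM or more, the median log2 ratio to the highest other library was 1.19. It was -0.17 over the 10252 genes at that level. As 9 of the 17 are members, which the rule placed high, this median follows from the choice of the members and nothing is read from it. The list held 2 more genes with the same shape below 5 CPM, named after their values were seen. JDP2, a repressor of the same protein family, had 238, 40, 39 and 33 counts, and NUPR1 had 142, 77, 74 and 73.

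**Figure D2:**
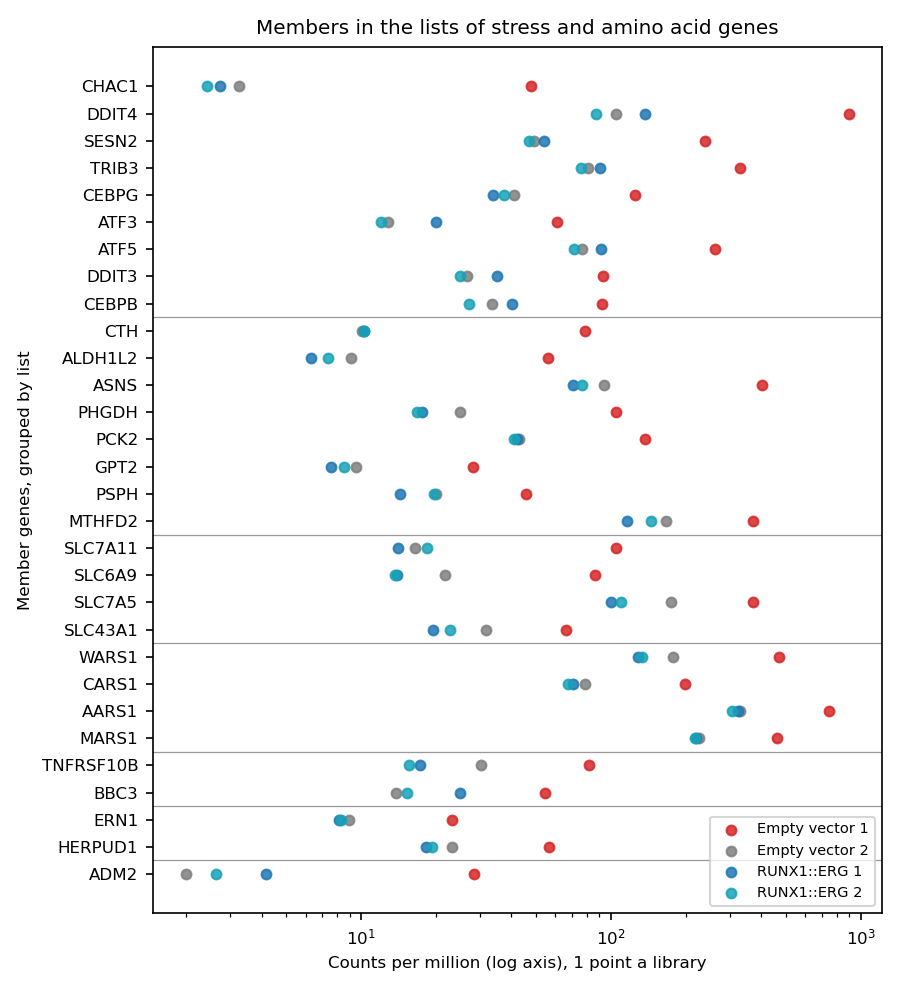
The 30 members in the gene lists are shown by row, grouped by list, with CPM on a horizontal log axis and 1 point for each library. Empty vector replicate 1 (red) is the highest point of every row, and the order of the other 3 points changes from row to row.

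Serine, one-carbon and amino acid synthesis held 8 members of 22 genes. CTH (chromosome 1, 70876901 to 70905534), which makes cysteine from cystathionine, was at 78.6 CPM in empty vector replicate 1 and at 10.1, 10.3 and 10.3 CPM in the others, which differed by 1.02 times among themselves. ASNS (chromosome 7, 97480989 to 97501854), whose promoter element is printed above, was at 404, 93.7, 70.7 and 76.7 CPM. PHGDH, the first enzyme of serine synthesis from glucose, was at 105, 25.0, 17.5 and 16.8 CPM, and PSPH, its last enzyme, at 45.6, 19.9, 14.3 and 19.6 CPM. Both ends of the serine pathway were therefore high in empty vector replicate 1, PHGDH by a ratio of 4.18 and PSPH by 2.29.

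The mitochondrial folate enzymes ALDH1L2 and MTHFD2 were at 56.1 and 372 CPM in that library, against at most 9.14 and 166 CPM in any other. PCK2, the mitochondrial phosphoenolpyruvate carboxykinase, was at 137, 42.8, 42.1 and 40.8 CPM, and GPT2, the mitochondrial alanine aminotransferase, at 28.0, 9.52, 7.57 and 8.58 CPM. For PCK2 as for CTH, the spread of the other 3 libraries (1.05 times) was small beside the gap. Of the 20 genes of this list with a mean of 5 CPM or more, 16 (80%) were highest in empty vector replicate 1, against 26.5% of all genes at that level, and 0 were lowest. The 8 members among the 16 were highest by the rule, so this share is raised by the choice of the members. The cytosolic enzyme MTHFD1 had the lowest log2 ratio, -0.27.

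Amino acid transporters held 4 members of 15. SLC7A11 (chromosome 4, 139085251 to 139163503), the cystine-glutamate exchanger, was at 105, 16.4, 14.1 and 18.4 CPM, 5.68 times the highest other library. SLC6A9, a glycine transporter, was at 86.0, 21.7, 14.0 and 13.6 CPM. SLC7A5 and SLC43A1, carriers of large neutral amino acids, were at 369 and 66.4 CPM, against 173 and 31.6 CPM in empty vector replicate 2 and at most 109.8 and 22.7 CPM in the RUNX1::ERG libraries. These last 3 transporters descended in steps, with empty vector replicate 2 between empty vector replicate 1 and both RUNX1::ERG libraries. SLC3A2, the heavy chain that SLC7A11 and SLC7A5 share, stayed outside the rule at a ratio of 1.71. Of the 14 transporters with a mean of 5 CPM or more, 11 were highest in empty vector replicate 1, of which the 4 members were so by the rule. The lowest log2 ratio was -0.48, for SLC7A8.

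Cytosolic tRNA synthetases, which load amino acids onto tRNA, held 4 members of 20. AARS1, for alanine, was at 748, 328, 322 and 307 CPM, and WARS1, for tryptophan, at 473, 177, 128 and 133 CPM. CARS1, for cysteine, was at 199, 78.4, 70.7 and 67.4 CPM, and MARS1, for methionine, at 463, 225, 219 and 217 CPM. The higher level was not shared by the whole family. In the 19 genes with a mean of 5 CPM or more the log2 ratio to the highest other library had a median of 0.20 and ran from -0.46 for RARS1 to 1.42 for WARS1.

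The apoptosis list held 2 members of 15, both known to be induced by DDIT3 or ATF4. TNFRSF10B, the death receptor DR5, was at 81.8, 30.2, 17.2 and 15.6 CPM, and BBC3, the BH3-only protein PUMA, at 54.5, 13.9, 25.0 and 15.3 CPM. They took opposite orders in the other libraries, as empty vector replicate 2 was above both RUNX1::ERG libraries for TNFRSF10B and below both for BBC3. The median log2 ratio over the 11 genes of this list with a mean of 5 CPM or more was -0.08, and 3 of them were highest in empty vector replicate 1. The third was PMAIP1, the BH3-only protein NOXA, which stayed outside the rule at 31.9, 16.1, 16.8 and 16.5 CPM. Of secreted factors linked to stress, ADM2 (adrenomedullin 2) was a member of 11 genes listed, at 28.2, 1.99, 4.18 and 2.63 CPM. FGF21, a hormone that ATF4 is known to induce, was below 5 CPM with 60, 4, 4 and 0 counts, and is named after its values were seen.

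The ER unfolded protein response gave 2 members of 25, ERN1 and HERPUD1. ERN1, the ER stress sensor IRE1, was at 23.2, 8.99, 8.18 and 8.33 CPM, and HERPUD1, which serves the degradation of ER proteins, at 56.7, 23.2, 18.2 and 19.3 CPM. The chaperones of the same list did not share this. HSPA5, or BiP, the main ER chaperone, was at 646, 761, 479 and 590.2 CPM, so that empty vector replicate 1 lay inside the range of the others. The median log2 ratio to the highest other library over the 25 genes was -0.24, close to the -0.17 of all genes.

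Of 12 heat shock genes with a mean of 5 CPM or more, 0 were highest in empty vector replicate 1, against 26.5% of all genes at that level, and 6 were lowest there, against 23.8% of all genes, with a median log2 ratio to the highest other library of -0.56. HSPA8, a constitutive cytosolic chaperone, was at 1376, 3379.7, 1875 and 2741 CPM, so that both first replicates lay below both second replicates. HSPA1A and HSPA1B are near-identical copies and were close to 0 in every library, so their counts are uncertain. Hypoxia genes had a median of -0.51 with 1 of 15 highest in empty vector replicate 1, and NRF2 antioxidant genes -0.27 with 2 of 16. Nutrient withdrawal and FOXO genes had a median of 0.22 with 6 of 10 highest, and autophagy genes -0.05 with 4 of 10. Cholesterol synthesis (-0.11), S phase (-0.24), G2/M phase (-0.24), replication-dependent histones (-0.04) and erythroid genes (-0.34) had medians between -0.34 and -0.04 and no member. The interferon-stimulated (-0.34), NF-kB and cytokine (-0.48), immediate early (-0.55) and DNA damage (-0.32) lists also had no member. Nor did the megakaryocytic list (-2.79), which summed to 415 and 413 CPM in the empty vector libraries and 856 and 757 CPM with RUNX1::ERG. The metallothioneins, with 1 gene at that level, also held none. Such ratios fall where RUNX1::ERG was high. Against empty vector replicate 2 alone, median log2 ratios were 0.03 over all genes, 0.91 for nutrient withdrawal and FOXO and 0.55 for histones. They were 0.41 for NF-kB and cytokine, 0.32 for interferon-stimulated, 0.20 for autophagy and 0.16 for immediate early and DNA damage genes. Erythroid (0.07), cholesterol (-0.02), S phase (-0.03), NRF2 (-0.06), G2/M (-0.14), hypoxia (-0.20) and heat shock (-0.50) lists were lower.

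**Figure D3:**
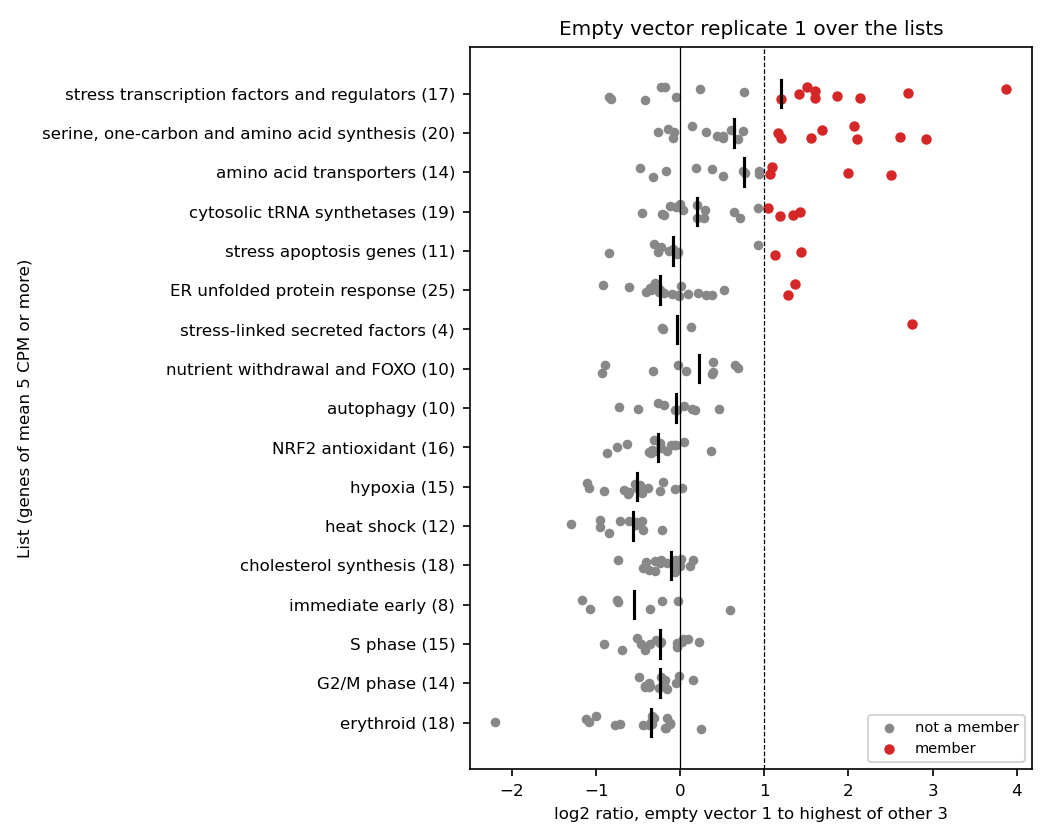
For 17 lists, each point is a gene with a mean of 5 CPM or more, placed by the log2 ratio of empty vector replicate 1 to the highest of the other 3 libraries, with the number of genes in brackets and a black bar at the median. Members (red) lie to the right of the dashed line at a log2 ratio of 1 by construction, and the medians run from 1.19 for stress transcription factors and regulators to -0.56 for heat shock genes. The medians include the members, which raise them by construction.

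The 46 members outside the lists included immune, glycosylation and tissue-restricted genes. LINC02806 (chromosome 1, 147767287 to 147769663) had the largest ratio of all, at 13.3 CPM against 0.820, 0.814 and 0.712. IL20RB, a receptor chain for the interleukins of the IL-20 family, was at 19.5, 2.29, 2.198 and 1.49 CPM. ULBP1, a stress ligand seen by the NKG2D receptor of natural killer cells, was at 14.1, 2.51, 1.94 and 1.62 CPM. These 3 were at or below 2.51 CPM outside empty vector replicate 1.

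AKNA, a protein with an AT-hook, was at 59.4, 10.7, 8.56 and 6.16 CPM, and G0S2, an inhibitor of the triglyceride lipase ATGL, at 22.3, 4.13, 3.12 and 2.65 CPM. TF, which encodes transferrin, was at 10.5, 1.87, 2.61 and 2.54 CPM. COLGALT2, a collagen galactosyltransferase, was at 125, 46.1, 29.0 and 36.2 CPM. IDH1, the cytosolic isocitrate dehydrogenase that makes NADPH, was at 155, 67.0, 49.1 and 65.5 CPM. In each of these 5 genes the other 3 libraries lay within 1.73 times of each other. Several other members are uncertain in these counts because they are antisense or divergent transcripts (DLGAP1-AS2, ZEB1-AS1, CCDC18-AS1 and TFIP11-DT) or have near-identical copies (FAM86B3P and GTF2IRD2B, and DDX39B on the alternate haplotypes of its region). Long noncoding RNAs made up 11.8% of the members, against 2.37% of the genes of 5 CPM or more in empty vector replicate 1.

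The members rest on 1 control library, so the comparison of RUNX1::ERG with the empty vector was read with and without it. In the fit of all 4 libraries with edgeR's quasi-likelihood test, 11 of the 76 members had an adjusted p under 0.05, all lower with RUNX1::ERG, against 1.15% of the 15394 genes tested being called lower. Since empty vector replicate 1 chose the members, this count follows from the choice and nothing is read from it. The 11 were S100P, SLC7A5, TNFRSF10B, LINC00861, MYCL, SLC43A1, SLC6A9, PHGDH, COLGALT2, WARS1 and AKNA. CHAC1, with the second largest ratio, missed that threshold at a log2 fold change of -3.33 (standard error, SE, 0.84, adjusted p = 0.0505 in edgeR). DDIT4 missed it at -2.17 (SE 0.67, adjusted p = 0.099). These values, like the count, follow from the choice of the members.

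Without empty vector replicate 1, the RUNX1::ERG libraries were compared with empty vector replicate 2 alone, with edgeR fitted over 15968 genes. This leaves 1 control library, which is assumed to vary like the RUNX1::ERG libraries. All 76 members were tested. Of them, 4 were called lower with RUNX1::ERG, against 1.91% of all genes tested, and 2 were called higher, against 5.77%. The median log2 fold change of the members was -0.15, with 51 of 76 below 0, against 0.03 and 46.8% over all genes. With all 4 libraries the median of the members was -1.11, against 0.00 over all genes.

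**Figure D4:**
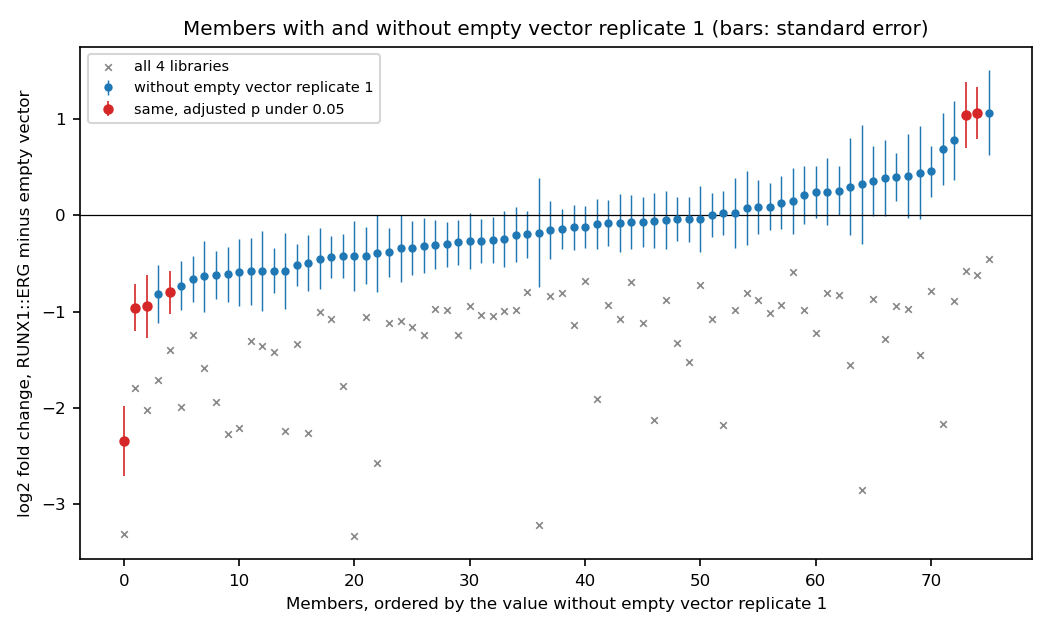
Members are ordered along the horizontal axis by their log2 fold change of RUNX1::ERG minus empty vector in the fit without empty vector replicate 1 (circles with standard error bars), and crosses give the value with all 4 libraries. The 6 members called without that library are red, and every cross lies below 0.

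Of the 4 genes lower in this comparison, S100P, a calcium-binding protein of the S100 family, was at 16.4, 5.35, 1.40 and 0.824 CPM in empty vector replicates 1 and 2 and RUNX1::ERG replicates 1 and 2. Without empty vector replicate 1 it was lower with RUNX1::ERG by a log2 fold change of -2.34 (SE 0.36), with an adjusted p of 1.47e-08 in edgeR. Empty vector replicate 2 lay above both RUNX1::ERG libraries, while the place of empty vector replicate 1 was set by the rule. S100P had the widest spread of the other 3 libraries, 6.50 times.

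The edgeR values of the other lower genes were log2 fold changes of -0.96 for TNFRSF10B (SE 0.24, adjusted p = 0.0025), -0.80 for SLC7A5 (SE 0.22, adjusted p = 0.0061) and -0.95 for LINC00861 (SE 0.32, adjusted p = 0.048). LINC00861, a long noncoding RNA, was at 19.4, 5.75, 3.33 and 2.98 CPM. Below empty vector replicate 1, which the rule set highest, the order was that of S100P. LINC00861 lost its call with the DESeq2 Wald test (adjusted p = 0.158), with library totals in edgeR (0.0850) and without the filter on low counts (0.0588). The 2 genes higher with RUNX1::ERG were SH3BP2, an adaptor that binds SH3 domains, at 1.06 (SE 0.27, adjusted p = 0.0029 in edgeR) and PRSS8, the serine protease prostasin, at 1.04 (SE 0.34, adjusted p = 0.032), of which PRSS8 lost its call with the DESeq2 Wald test (adjusted p = 0.123). SH3BP2 was at 54.0, 9.49, 25.0 and 16.9 CPM and PRSS8 at 15.3, 2.81, 7.13 and 5.11 CPM, so that with empty vector replicate 1 included the 2 groups overlapped. Stress and amino acid members varied in this comparison. Some had values near 0, such as DDIT4 at 0.02 (SE 0.23) and CTH at -0.05 (SE 0.28). Others lay further off on either side, such as SLC6A9 at -0.73 (SE 0.25), PHGDH at -0.62 (SE 0.25) and ADM2 at 0.69 (SE 0.38).

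The order of the other 3 libraries was not set by the rule either. Empty vector replicate 2 was above both RUNX1::ERG libraries in 39 members (51.3%), against 33.7% of the other genes of 5 CPM or more, and below both in 18 (23.7%), against 41.0%. RUNX1::ERG replicate 1 was the highest of the 3 in 33 members (43.4%), against 35.2% of the other genes. RUNX1::ERG replicate 2 was so in 4 (5.26%), against 31.1%. RUNX1::ERG replicate 1 exceeded replicate 2 in 52 of 76 members (68.4%), against 48.1%. These shares are descriptive, since the members vary together in a library. PHGDH, SLC6A9, SLC7A5, SLC43A1 and TNFRSF10B belonged to the members with empty vector replicate 2 on top, and ADM2, ATF3, BBC3, DDIT3 and DDIT4 to those with RUNX1::ERG replicate 1 on top.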

How the data were processed

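The deposited values were raw counts for each NCBI gene number, not normalized, in 1 file for each of 4 libraries. The submitters' processing notes name HISAT2 2.2.1, featureCounts 2.0.1 and hg19. Strand and pair settings are not given in the sources used here.

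Symbols came from a RefSeq table of GRCh38.p14, which matched 92.2% of genes, and positions from GENCODE on GRCh37. CPM was the count divided by the file's sum. The groups were compared with edgeR 4.0.16 in R 4.3.3 (TMM scaling, its filter on low counts, quasi-likelihood test, Benjamini-Hochberg adjustment over all genes kept, threshold 0.05), and DESeq2 1.42.0 was an alternative. The standard error is the size of the log2 fold change over the square root of F. The study calls the replicates biological and does not describe their separate cultures, so p-values measure the spread between these samples. An exact permutation test of 2 libraries against 2 cannot go below p = 0.333.

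The members and gene lists were chosen with earlier results of these data known. Named are members in a list, the 15 with the highest CPM or, from 10 CPM, the highest ratio, genes beside a threshold, those called, and list extremes. Other genes outside this rule were chosen after their values were seen. On simulated data with 200 genes changed by a log2 fold of 1, 39.5% were called with 2 libraries against 2 (13918 genes), and 13.5% with 1 control against 2 (13917 genes). With a log2 fold of 2 these were 99.0% and 95.5%. The simulation gave every gene the same relative spread and had no library that stands apart. Its shares therefore do not describe the members. Intervals and count limits cover counting error only.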

Additional observations from a re-analysis of the deposited data

How the results depend on the processing

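The number of members held with TMM scaling (75, of which 74 shared) and DESeq2 size factors (72, 71 shared), and was 60 from 10 CPM. It was 244 with a fold minimum of 1.5, 28 with 3 and 139 from 1 CPM, by construction. Against empty vector replicate 2 alone, added after the data were seen, 218 genes met it.

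With all 4 libraries, 737 genes were called. The DESeq2 Wald test gave 1194 (66.7% higher, against 76.0%), no filter on low counts 1500 (64.1% higher) and the replicate block 1733 (62.4% higher). Leaving out 1 library gave 286 to 1336. Members called lower were 11, against 177 of 15394 genes. With DESeq2 size factors they were 19 (213 of 15394), with the Wald test 19 (398 of 20312) and with library totals 3 (103 of 15394). Without the filter they were 68 (538 of 20312) and with the replicate block 31 (651 of 15394). Leaving out empty vector replicate 1 or 2 gave a median log2 fold change of the members of -0.15 or -1.67. Leaving out RUNX1::ERG replicate 1 or 2 gave -1.25 or -1.14. Over all genes, these medians ran from -0.02 to 0.03. Each such fit leaves a lone library assumed to vary like the other group. Where empty vector replicate 1 was kept, the counts and medians of the members follow from their choice. The cause was not tested. The replicate numbers carried some shared deviation (r = 0.27 across genes, which are not replicates), but no label ties a number to a batch, so libraries were not paired.

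Without empty vector replicate 1, the log2 fold change of LINC00861 ran from -0.97 with the Wald test to -0.87 with library totals. That of PRSS8 ran from 1.02 to 1.12 in the same order. The median of the members was -0.17 with the Wald test, against 0.06 over all genes. Without the filter on low counts it was -0.15, against 0.08. With library totals 42 of 76 members were below 0, with a median log2 fold change of -0.07 against 0.11 over all genes. The order of the other 3 libraries with TMM scaling was 44, 29 and 3 members for empty vector replicate 2 and RUNX1::ERG replicates 1 and 2.

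The share of member promoters with the exact 9-letter element, 2.25%, was 14.6% with 1 free base, 10.1% with the 8-letter core (added later) and 6.45% in members of fold 3 or more. Promoters were held for 58 members, so shares for the rest are unknown.

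Without empty vector replicate 1, the log2 fold change of 25 of the 76 members changed sign, 12 of the 48 named ones among them. With that library all 76 were negative, which follows from the choice of the members. Over all genes, 46.8% were negative without it. In the ranges below, the negative ends come from fits that kept empty vector replicate 1, so they also follow from that choice. With a library left out, the log2 fold change ran from -3.06 to 0.69 for ADM2, -1.93 to 0.24 for ATF3, -1.69 to 0.0048 for ATF5, -1.45 to 0.46 for BBC3, -1.64 to 0.090 for DDIT3, -3.01 to 0.024 for DDIT4, -2.04 to 0.38 for TF, -1.68 to 0.41 for CORO1A, -1.08 to 0.15 for PAX6, -1.33 to 1.04 for PRSS8, -1.38 to 1.06 for SH3BP2 and -1.19 to 1.06 for TCP11L2.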

Other observations

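Some stress genes outside the rule were high in empty vector replicate 1 and also in RUNX1::ERG replicate 1. They were chosen after their values were seen, and no test was made. GDF15, a secreted stress hormone, was at 232, 55.4, 271 and 151 CPM in empty vector replicates 1 and 2 and RUNX1::ERG replicates 1 and 2. VEGFA, an angiogenic growth factor, was at 298, 128, 272 and 162 CPM. GADD45A, a growth arrest gene, was at 291, 142, 299 and 212 CPM. For these 3 genes, the first replicate of each group lay above both second replicates, and empty vector replicate 2 was the lowest library.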
